A study of Mus musculus with 8 samples.

Results

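The chemokine receptor genes Ccr6, Ccr7, Cxcr4, Cxcr5, Ccr9, Cxcr3, Ccr2 and Ccr10 were followed in B splenocytes, cells prepared from the spleen, of mice with lymphoma and of wild type mice. These 8 receptors of B cells were chosen with earlier results of these data known. Their features were found by gene symbol alone in the annotation of the array, which gave 10 array features for the 8 genes. The table held 45220 features and 19087 genes with a listed symbol. Cxcr4 and Ccr2 had 2 features each and the other genes 1 each. The lymphoma group held 4 samples labelled as c-myc/Cdk4(R24C) lymphoma, where R24C is a substitution that makes the kinase Cdk4 resistant to inhibitors of the INK4 family. The wild type group held 4 samples, and both groups were of strain C57BL/6. Each sample was run on 1 array with 0.5 µg of polyA RNA labelled with Cy3, and nothing in the labels says that samples of a group came from separate mice, so the p values measure the spread between these samples. Neither the element that drives c-myc nor the age of the mice was given in the labels. The study's title describes the disease as resembling the blastoid form of mantle cell lymphoma, and the question put to the data here is which chemokine receptor transcripts differed between the lymphoma and the wild type samples.

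Chemokine receptors are G protein-coupled receptors with which lymphocytes read gradients of small secreted proteins. CXCR5 draws B cells into the follicle towards CXCL13, and CCR7 draws them to the edge of the T cell zone towards CCL19 and CCL21. CXCR4 binds CXCL12, which the stroma of bone marrow and red pulp makes, and CCR6 binds CCL20. CXCR3 answers to the interferon-induced CXCL9, CXCL10 and CXCL11, CCR9 and CCR10 guide cells to the gut and other epithelia, and CCR2 is the CCL2 receptor of monocytes.

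The 250 bases before the annotated transcript starts of Ccr6 and Cxcr4 are shown because these were the receptors past the threshold for which such windows were at hand. The sequences are those of RefSeq on GRCm38.p6, whose promoter table held 5 of the 8 genes in 6 windows. Ccr6 has a window before each of its 2 listed starts, at chr17:8235793-8236042 and chr17:8242276-8242525, both on the + strand. The Cxcr4 window lies at chr1:128592300-128592549 on the - strand. Each is written 5′ to 3′ along the gene, with matches in capitals.
Ccr6, first start: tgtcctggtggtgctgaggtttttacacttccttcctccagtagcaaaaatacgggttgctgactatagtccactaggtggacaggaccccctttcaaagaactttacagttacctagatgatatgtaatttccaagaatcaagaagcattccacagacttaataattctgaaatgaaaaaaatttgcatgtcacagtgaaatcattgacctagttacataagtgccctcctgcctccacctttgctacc
Ccr6, second start: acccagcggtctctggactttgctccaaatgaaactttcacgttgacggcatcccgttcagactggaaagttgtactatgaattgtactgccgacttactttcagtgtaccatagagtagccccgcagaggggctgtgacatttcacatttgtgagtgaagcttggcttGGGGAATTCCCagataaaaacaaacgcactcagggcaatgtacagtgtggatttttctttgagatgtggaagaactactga
Cxcr4: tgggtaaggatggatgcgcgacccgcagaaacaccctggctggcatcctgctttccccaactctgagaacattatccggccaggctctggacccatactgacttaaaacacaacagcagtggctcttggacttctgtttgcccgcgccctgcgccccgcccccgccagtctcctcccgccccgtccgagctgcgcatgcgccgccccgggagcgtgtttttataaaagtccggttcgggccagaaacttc
Searched on both strands were CACGTG, the E-box that MYC binds, a loose form of the NF-kB motif (3 G, any 5 bases, 2 C), and GTAAACA, a FOXO motif. No E-box and no FOXO motif was found in any of the 6 windows, against 6.02% and 3.17% of 32851 promoter windows of the same length. The window of the second Ccr6 start holds GGGGAATTCCC, which gives 2 overlapping matches to the loose NF-kB motif, from 81 to 72 and from 80 to 71 bases before the start. That motif is present in 45.8% of all windows. Matches to it also lie before Ccr9, with 2, and Cxcr3, with 1, and none lies before the first Ccr6 start, Cxcr4 or Ccr2.

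The wild type arrays were less alike than the lymphoma arrays, and wild type 1 was the one that lay nearer to the other group. Across features it correlated by 0.963 on average with lymphoma and by 0.941 with the remaining controls, while those controls correlated with lymphoma by 0.918 to 0.941. Wild type 2 had the lowest mean correlations of the 8 arrays, 0.918 with lymphoma and 0.935 with the other controls. The receptor calls are therefore also given with each of these left out in turn. Between 50.2% and 52.9% of the listed features of an array lay above a background bound, the 95th percentile of its olfactory and vomeronasal receptor features. The bounds lay between 7.17 and 7.45 on the log2 scale. Slide 1 carried samples 1 and 2 of each group and slide 2 samples 3 and 4 of each group. The defining B cell marker Ms4a1 averaged 15.84 in lymphoma and 15.73 in wild type, and Cd79b averaged 15.88 in lymphoma and 15.77 in wild type (mean log2 intensities). Both lay near a ceiling of 80% of the array's highest intensity, Ms4a1 on 5 and Cd79b on 7 of the 8 arrays. These 2 markers thus show that B cell transcripts were abundant and little about a difference. Cd22, another B cell marker, was lower in lymphoma by -1.03 and -0.82 in its 2 features (adjusted p 0.0854 and 0.161 in limma). On both, every lymphoma array lay below every wild type array, which held for 5.55% of all genes by their brightest feature. Cd22 was singled out though it was not called, and 0 of the 7 B cell markers measured passed. The median difference of the 7 B cell markers measured was 0.09.

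Of the 8 receptors 3 were lower in lymphoma: Ccr6 by 9.16-fold, Ccr7 by 6.25-fold and Cxcr4 by 3.94-fold. Cxcr5, the follicular receptor, gave a strong signal in both groups and differed by 0.13 on the log2 scale. Cxcr3 was 4.58-fold lower with an adjusted p of 0.0608 in limma, just outside the threshold of 0.05. Ccr9, Ccr2 and Ccr10 lay at or close to background in both groups. Thus 3 of 8 receptors were called lower and 0 higher in limma, where 2.09% of 19087 genes were called, 1.27% lower and 0.817% higher. The receptors were chosen with earlier results of these data known, so such shares are no test of the list. By feature, 3 of the 10 receptor features were called, all lower, against 1.65% of all features called and 0.997% called lower. Without wild type 1, 4 of 8 receptors were lower and 0 higher, beside 8.15% of genes called, 3.87% lower and 4.28% higher. Without wild type 2, Ccr6 was the 1 receptor called, beside 1.23% of genes. Within slide 2 the same 4, Ccr6, Ccr7, Cxcr4 and Cxcr3, were called, beside 6.75% of genes. Within slide 1 no receptor and 0% of genes were called. There 4 receptors had an unadjusted p under 0.05 in limma, and the share of all genes with such a p was not counted. In 4 of the 8, Cxcr3 among them, every lymphoma array lay below every wild type array, which held for 5.55% of all genes. In 0 of the 8 did every lymphoma array lie above, which held for 4.43%. The arrays measure the RNA of the whole preparation, in which fewer cells of a type and less RNA per cell cannot be told apart.

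**Figure D1:**
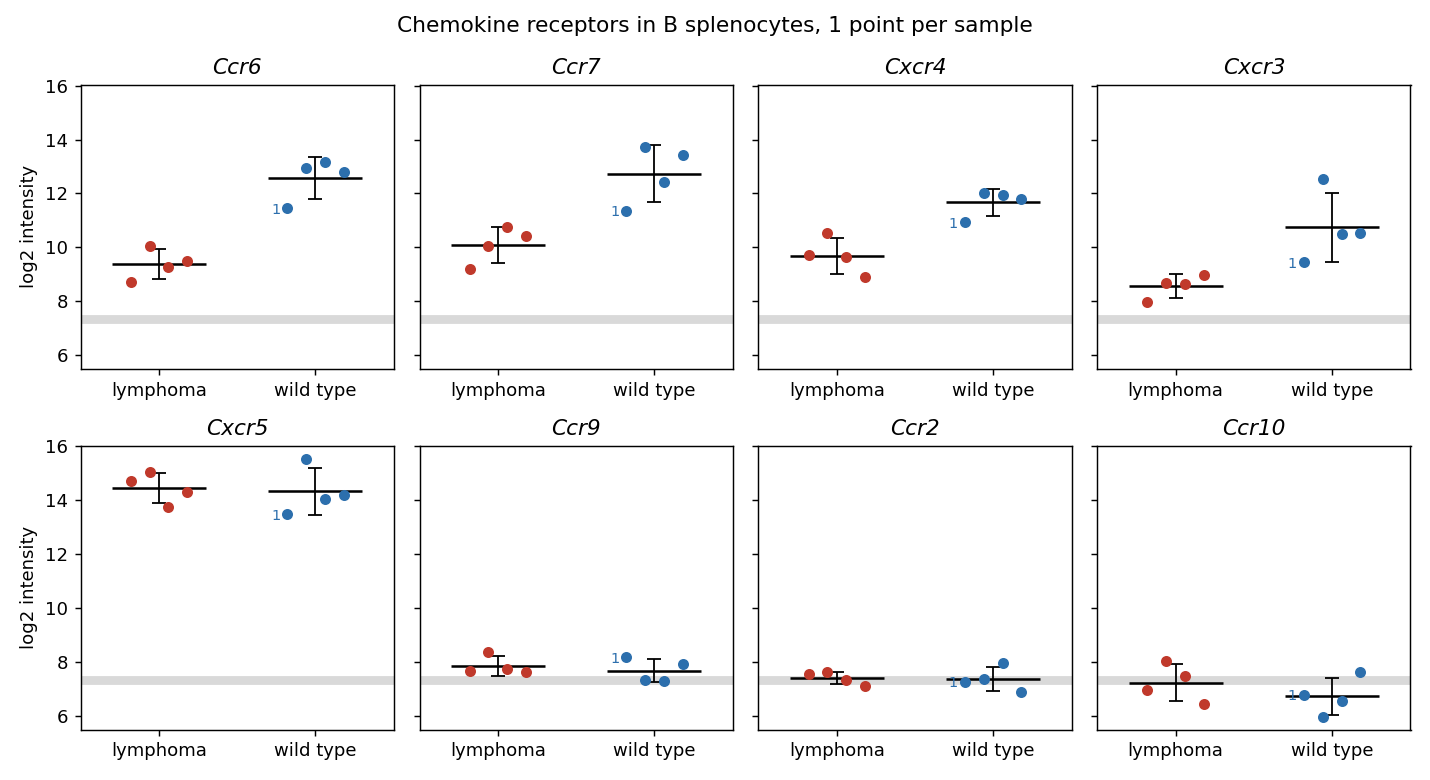
Log2 intensity of each receptor by its brightest feature, with 4 lymphoma samples left and 4 wild type samples right in each panel, the mean as a line and the SD as a bar. The numeral 1 marks wild type 1, the grey band spans the background bounds of 7.17 to 7.45, and in the Ccr6, Ccr7, Cxcr4 and Cxcr3 panels all lymphoma points lie below all wild type points.

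Ccr6, whose ligand CCL20 is made by epithelia and inflamed tissue, had log2 intensities of 8.71, 10.06, 9.27 and 9.50 in lymphoma 1 to 4. In wild type 1 to 4 they were 11.44, 12.94, 13.15 and 12.80. The groups were 1.38 apart at their nearest points, lymphoma 2 and wild type 1, the widest gap among the receptors. The means were 9.39 ± 0.56 in lymphoma and 12.58 ± 0.77 in wild type (SD, n = 4 each). The log2 difference was -3.19 ± 0.39 (SE), and limma gave an adjusted p of 0.00518. It was the one receptor that passed whichever array was left out, with adjusted p values up to 0.0270. Without wild type 1 it was 11.9-fold lower (adjusted p 8.18e-05). Within slide 1 the difference was -2.80 and within slide 2 it was -3.59.

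Ccr7, the receptor that brings B cells towards T cells, had log2 intensities of 9.17, 10.03, 10.74 and 10.40 in lymphoma 1 to 4. In wild type 1 to 4 they were 11.35, 13.71, 12.43 and 13.43. Wild type 1 was again the control nearest to the lymphomas, 0.61 above lymphoma 3. Ccr7 averaged 10.09 ± 0.68 in lymphoma and 12.73 ± 1.07 in wild type (SD, n = 4 each), a log2 difference of -2.64 ± 0.49 (SE; limma, adjusted p 0.0255). Ccr7 was 8.60-fold lower without wild type 1 (adjusted p 0.00103). The call was lost when wild type 2, 3 or 4 or lymphoma 1, 2 or 4 was left out, with adjusted p values of 0.0602 to 0.0935 and differences of -2.75 to -2.32.

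Cxcr4, which anchors cells to stroma that makes CXCL12, had log2 intensities of 9.71, 10.51, 9.64 and 8.87 in lymphoma 1 to 4 by its brighter feature. In wild type 1 to 4 they were 10.92, 12.00, 11.94 and 11.79. Wild type 2, 3 and 4 lay close together and the lymphomas were spread more widely, with lymphoma 2 the highest and lymphoma 4 the lowest. Cxcr4 averaged 9.68 ± 0.67 in lymphoma and 11.66 ± 0.51 in wild type (SD, n = 4 each), a log2 difference of -1.98 ± 0.35 (SE; limma, adjusted p 0.0228). The fold was 4.69 without wild type 1 (adjusted p 0.00263). The second Cxcr4 feature, annotated to the same transcript, gave 9.15, 10.26, 9.39 and 9.11 in lymphoma 1 to 4 and 9.96, 10.40, 11.23 and 10.91 in wild type 1 to 4. There lymphoma 2 lay above wild type 1, and the difference of -1.15 did not pass (adjusted p 0.118), though it was called without wild type 1 (-1.37, adjusted p 0.0265). The mean of both features differed by -1.56 and passed (adjusted p 0.0352). The slides gave unlike sizes for the brighter feature, -1.35 within slide 1 and -2.61 within slide 2, and the test of that difference in limma had an adjusted p of 0.687. The call was lost without wild type 2, 3 or 4 or lymphoma 1, 3 or 4, with adjusted p values of 0.0571 to 0.0846 and differences of -1.99 to -1.71.

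Cxcr3, the receptor for interferon-induced chemokines, had log2 intensities of 7.95, 8.66, 8.62 and 8.98 in lymphoma 1 to 4. In wild type 1 to 4 they were 9.44, 12.52, 10.49 and 10.54. The groups did not overlap, but lymphoma had an SD of 0.43 and the controls, from wild type 1 as the lowest to wild type 2 as the highest, an SD of 1.28. The log2 difference was -2.20 ± 0.52 (SE; 95% interval -3.33 to -1.06), and limma gave an adjusted p of 0.0608. Cxcr3 passed in 1 of the 8 fits that each left out an array, that without wild type 1 (-2.63, adjusted p 0.00605). In the other 7 the adjusted p was 0.0573 to 0.159, and without wild type 2 the difference was -1.61.

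Cxcr5, the receptor of the follicular chemokine CXCL13, had log2 intensities of 14.73, 15.04, 13.74 and 14.32 in lymphoma 1 to 4. In wild type 1 to 4 they were 13.49, 15.55, 14.06 and 14.21. The lymphoma values lay within the range of the controls, and no array was near the ceiling of 80% of its highest intensity. The difference was 0.13 with a 95% interval of -0.77 to 1.04 (adjusted p 0.918 in limma), which does not show that the groups are alike.

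The mucosal receptors gave weak signals. Ccr9 had log2 intensities of 7.65, 8.37, 7.74 and 7.61 in lymphoma 1 to 4 and 8.16, 7.31, 7.30 and 7.90 in wild type 1 to 4. All 4 lymphoma arrays and 3 of the 4 wild type arrays were above their bound, and the groups overlapped, with a difference of 0.18 (95% interval -0.42 to 0.77, adjusted p 0.814). Ccr10, which plasma cells that make IgA carry, had 6.96, 8.03, 7.45 and 6.44 in lymphoma 1 to 4 and 6.77, 5.95, 6.53 and 7.61 in wild type 1 to 4. Only 2 lymphoma arrays and 1 wild type array were above their bound for Ccr10. Its difference was 0.51 (95% interval -0.35 to 1.36, adjusted p 0.596). The monocyte receptor Ccr2 had 7.55, 7.61, 7.34 and 7.11 in lymphoma 1 to 4 and 7.25, 7.35, 7.94 and 6.86 in wild type 1 to 4 by its brighter feature. It was above the bound on 3 lymphoma arrays and 2 wild type arrays, with a difference of 0.05 (95% interval -0.51 to 0.61, adjusted p 0.951). The second Ccr2 feature was above the bound on 1 lymphoma array and on 0 wild type arrays. Changes in transcripts at such levels would be understated by the background signal.

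**Figure D2:**
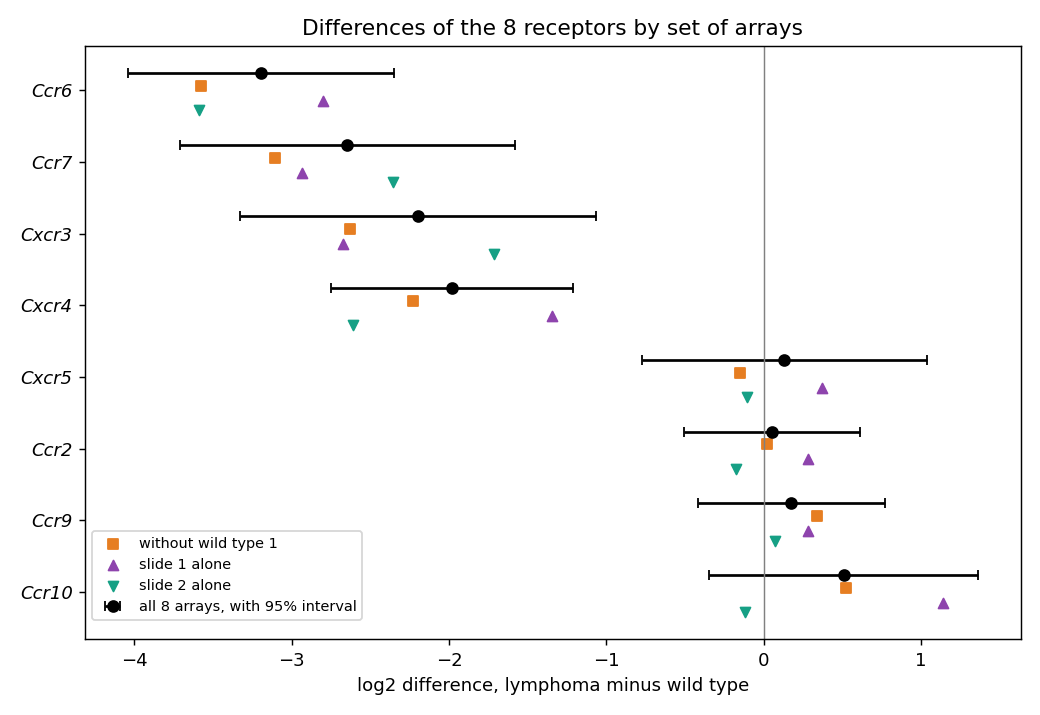
Log2 difference, lymphoma minus wild type, of the 8 receptors from all 8 arrays with the 95% interval, without wild type 1, and within each slide alone. Ccr6, Ccr7, Cxcr3 and Cxcr4 lie below 0 in each of the 4 sets of arrays, while Cxcr5, Ccr2 and Ccr10 lie on different sides of 0.

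Since Cxcr5 and the other receptors were read on the same array, their ratio does not depend on how arrays were scaled to each other. The ratio of Ccr7 to Cxcr5 sets the T zone receptor against the follicular one. Its log2 value was -5.56, -5.02, -2.99 and -3.92 in lymphoma 1 to 4 and -2.13, -1.84, -1.63 and -0.78 in wild type 1 to 4. All 4 lymphoma ratios lay below all 4 wild type ratios, with lymphoma 3 and wild type 1 the nearest, and the means were -4.37 ± 1.14 in lymphoma and -1.60 ± 0.58 in wild type (SD, n = 4 each). The ratio of Ccr6 to Cxcr5 averaged -5.07 ± 0.67 in lymphoma and -1.75 ± 0.74 in wild type. That of Cxcr4 averaged -4.77 ± 0.58 in lymphoma and -2.66 ± 0.62 in wild type, and that of Cxcr3 averaged -5.91 ± 0.80 in lymphoma and -3.58 ± 0.42 in wild type. In these 4 ratios every lymphoma array lay below every wild type array, which held for 2.14% of all genes set against Cxcr5, and for 0.121% every lymphoma ratio lay above. The ratios of Ccr9, Ccr2 and Ccr10 to Cxcr5 overlapped between the groups, with mean differences of 0.04, -0.08 and 0.38. In the ratios of Ccr6 and Cxcr4 wild type 1 lay among the other controls, at -2.05 against -2.61 to -0.91 and at -2.57 against -3.55 to -2.12, where the receptor signals alone had placed it nearest to the lymphomas. The ratios show unequal change of the receptors and not which of them changed, and they were chosen with the values known, so no test is given.

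**Figure D3:**
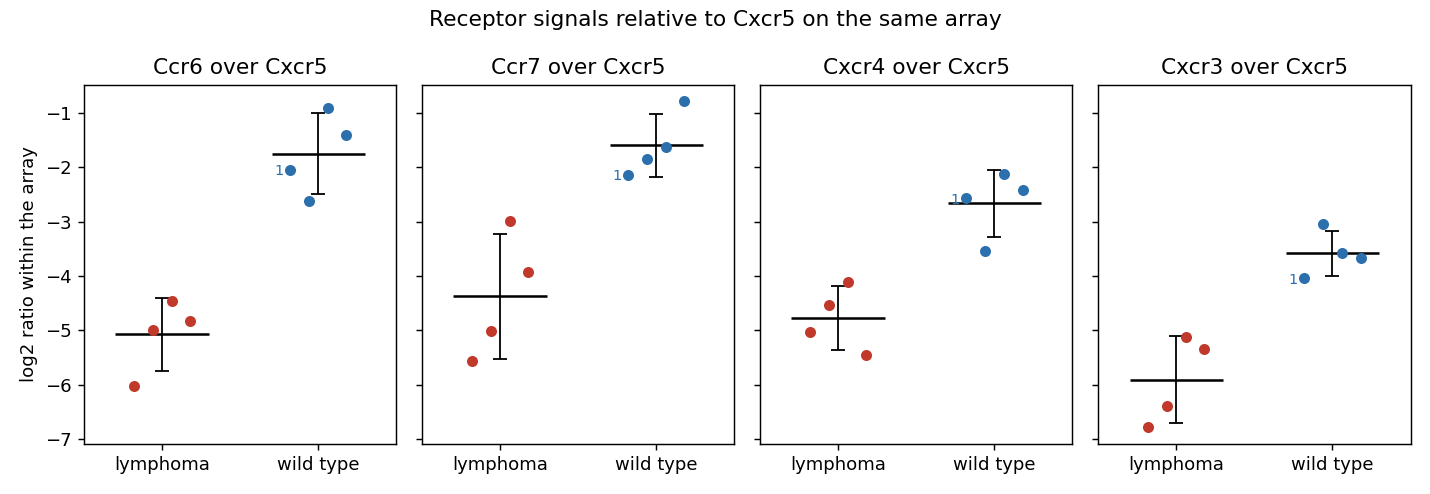
Log2 ratio of 4 receptors to Cxcr5 on the same array, with 4 lymphoma samples left and 4 wild type samples right, the mean as a line and the SD as a bar. Lymphoma and wild type points do not overlap in any panel, and wild type 1, marked by the numeral 1, is the lowest control for Ccr7 and Cxcr3 and lies between other controls for Ccr6 and Cxcr4.

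The profiles of Ccr6, Ccr7, Cxcr4 and Cxcr3, the receptors whose groups did not overlap, were alike to differing degrees. After each gene was centred on its mean, the profiles of Ccr7 and Cxcr3 differed by a root mean square of 0.54 log2 over the 8 arrays, the closest pair among these 4. Ccr6 and Ccr7 differed by 0.64 and Ccr7 and Cxcr4 by 0.85. Within the lymphomas Ccr6 and Cxcr4 were both highest in lymphoma 2, while Ccr7 was highest in lymphoma 3 and lowest in lymphoma 1. Cxcr4 was lowest in lymphoma 4 and Ccr6 in lymphoma 1.

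Among 10584 genes above background on at least 4 arrays, the one nearest in profile to Ccr6 was Gpr171, another G protein-coupled receptor, at a root mean square of 0.19. Ackr3, the atypical receptor for CXCL12 and CXCL11, was next at 0.23, followed by Pglyrp2, a peptidoglycan recognition protein, at 0.37. In lymphoma Ackr3 was above the background bound on only 2 of 4 arrays, so its profile and its difference depend on the background signal. Nearest to Ccr7 were Egr1, an immediate early transcription factor, at 0.34, the kinase gene Dclk2 at 0.42 and Pglyrp2 at 0.44. Nearest to Cxcr4 were Tns3, a tensin of focal adhesions, at 0.26, Cd69, an activation antigen that keeps S1PR1 off the cell surface, at 0.29 and Lax1, a membrane adaptor of lymphocytes, at 0.31. Each of these was itself called lower in lymphoma, with log2 differences from -3.32 for Ackr3 to -1.70 for Cd69, so the likeness includes the group difference. Gpr171, Ackr3, Pglyrp2 and Lax1 passed whichever array was left out, while Tns3 passed in 5 of the 8 such fits, Egr1 in 4, Dclk2 in 2 and Cd69 in 1. Tns3 did not pass by the mean of its features (adjusted p 0.265).

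**Figure D4:**
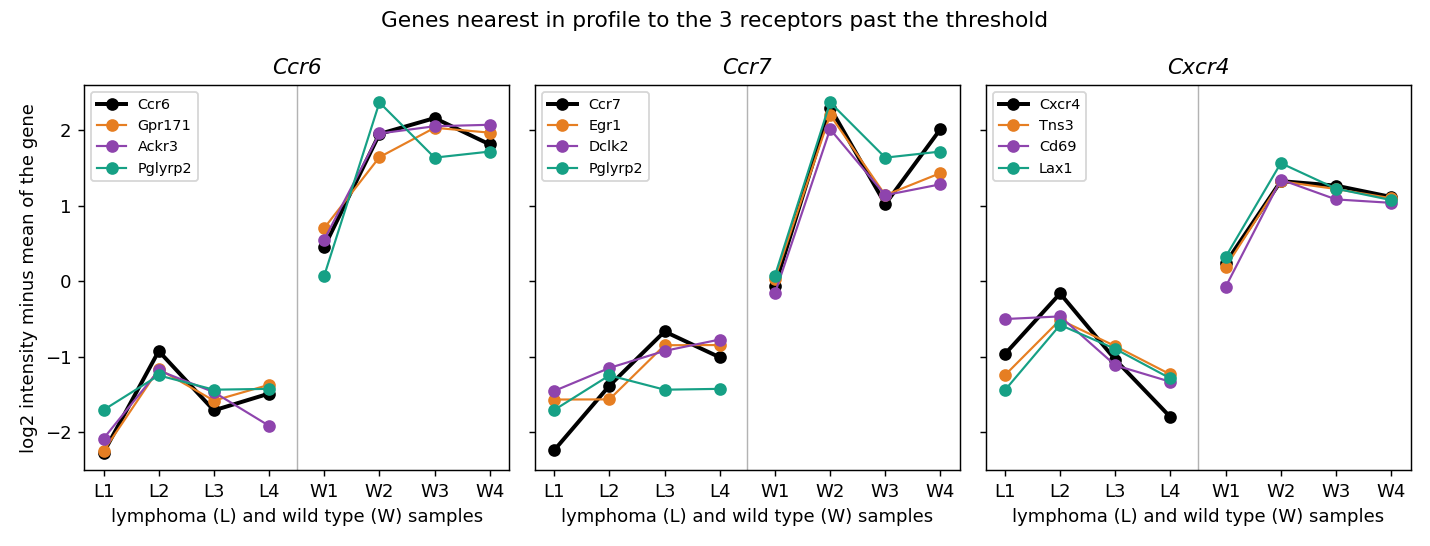
Log2 intensity minus the mean of the gene for Ccr6, Ccr7 and Cxcr4, in black, and the 3 genes nearest to each, over lymphoma 1 to 4 and wild type 1 to 4. In every panel wild type 1 lies between the lymphomas and the other controls, and Gpr171 and Ackr3 follow Ccr6 with root mean square differences of 0.19 and 0.23. Ackr3 was above the background bound on only 2 of 4 lymphoma arrays.

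Outside the 8 genes the array measured 16 of 17 other chemokine receptors on the list, of which 2 were lower, 0 were higher and 14 did not pass. Of all genes, 1.27% were called lower and 0.817% higher. Both of the lower ones are atypical receptors that do not signal through G proteins in the usual way. Ackr3, which takes up and clears CXCL12, had log2 intensities of 6.88, 7.78, 7.49 and 7.05 in lymphoma 1 to 4 and 9.51, 10.92, 11.02 and 11.03 in wild type 1 to 4. It was thus near background in lymphoma, above the bound on 2 of 4 arrays, and clearly measured in every control. With lymphoma partly at background, its difference of -3.32 (adjusted p 0.00304 in limma) depends on the background signal and is not ranked against that of Ccr6. It passed whichever array was left out. Ccrl2, which binds the attractant chemerin, differed by -1.63 (adjusted p 0.0175), while its second feature differed by -0.77 (adjusted p 0.285). The call of Ccrl2 was lost without wild type 3 or 4 or lymphoma 3 or 4, with adjusted p values up to 0.0760. The median difference of the list was 0.03, against 0.06 over all genes, and 6 of its genes were at background on all 8 arrays.

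The ligands of the 8 receptors were faint in these cells. Of 14 measured, 0 passed in limma in either direction, 3 had an unadjusted p under 0.05, and 6, among them Cxcl12 and Cxcl13, were at background on all arrays. Over all 19087 genes, 3039 had an unadjusted p under 0.05 in limma. The median difference of the 14 ligands was -0.22, against 0.06 over all genes. Ccl2, the CCR2 ligand, and Cxcl10, a CXCR3 ligand, had the largest differences, each of -1.07 (adjusted p 0.0700 for Ccl2 and 0.101 for Cxcl10). Of 10 Ccl2 features 1 passed, at -1.27 (adjusted p 0.0246), and Cxcl10 is named after its values were seen. Ccl2 was above the bound on all 4 wild type arrays and on 0 lymphoma arrays. Without wild type 1 both passed, with adjusted p values of 0.0136 for Ccl2 and 0.00370 for Cxcl10, beside 8.15% of all genes.

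Of 35 genes that carry or limit the receptor signal, 1 was lower, 0 were higher and 34 did not pass, with a median of -0.16. Over all genes 1.27% were called lower and 0.817% higher. The lower one was Grk3, a kinase that phosphorylates activated receptors. It had log2 intensities of 7.99, 8.52, 7.88 and 8.07 in lymphoma 1 to 4 and 8.80, 9.29, 9.55 and 9.80 in wild type 1 to 4. The groups did not overlap, with a difference of -1.24 (adjusted p 0.0379). Its 2 dimmer features differed by -0.05 and -0.03, the mean of all features did not pass (adjusted p 0.290), and it passed in 1 of the 8 fits that each left out an array, that without wild type 1. In the fit without wild type 1, 6 genes of this list were lower and 0 higher, beside 3.87% of all genes lower and 4.28% higher.

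Among 18 further genes that place B cells in the spleen and lymph node, 4 were lower and 1 was higher, with a median of -0.01. Of all genes, 1.27% were called lower and 0.817% higher. Lta, lymphotoxin alpha, which maintains follicles, differed by -2.46 (adjusted p 0.0173), and all 9 of its other features were also called lower. S1pr3, a receptor for sphingosine-1-phosphate found on mouse marginal zone B cells, differed by -2.02 (adjusted p 0.0175), though the mean of its 2 features did not pass (adjusted p 0.0786). Cnr2, a cannabinoid receptor of B cells, differed by -1.78 (adjusted p 0.0306). Cd69 was the other lower gene. Itgb7, the beta subunit of gut-homing integrins, was 2.26-fold higher, at 15.49, 15.37, 15.51 and 15.60 in lymphoma 1 to 4 and 14.73, 14.08, 14.45 and 14.00 in wild type 1 to 4 (adjusted p 0.0279). Cd69, Cnr2 and Itgb7 each passed in 1 of the 8 fits that left out an array, S1pr3 in 3 and Lta in 4. Adjusted p values in the fits that lost a call reached 0.110.

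**Figure D5:**
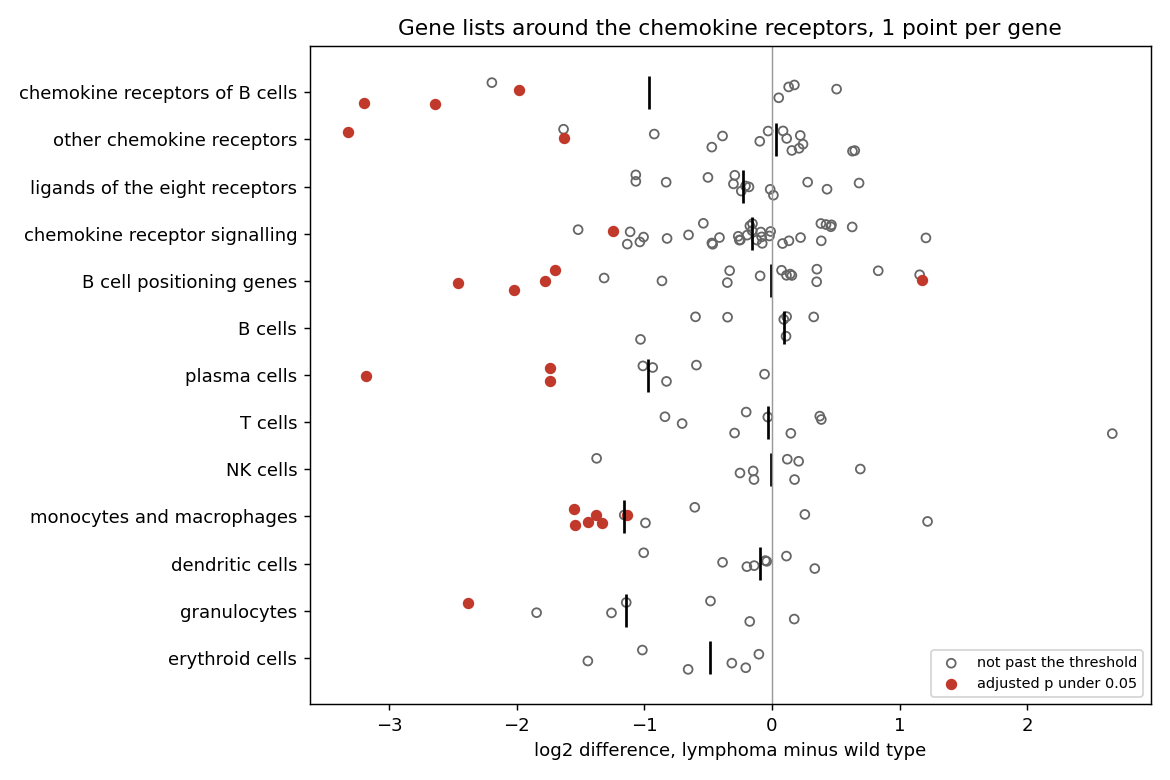
Log2 difference, lymphoma minus wild type, of every gene measured in the receptor, pathway and cell type marker lists, with filled points for an adjusted p under 0.05 and a bar at the median of each list. The 3 receptors past the threshold lie at -3.19, -2.64 and -1.98, Ackr3 lies at -3.32, and 6 markers of monocytes and macrophages lie between -1.55 and -1.14.

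Markers of other cells of the spleen that can carry these receptors also differed. The counts below stand beside 1.27% of all genes called lower and 0.817% higher, or 3.87% and 4.28% without wild type 1. Among 11 monocyte and macrophage markers 6 were lower and 0 higher (C1qa, C1qb, Fcgr1, Lyz2, Mpeg1 and Vcam1), and their summed linear intensity was 47232 to 79419 in lymphoma and 80699 to 87159 in wild type. Mpeg1 passed whichever array was left out, Fcgr1 in 5 of the 8 such fits, C1qa, C1qb and Lyz2 in 2 and Vcam1 in 1. The list had 1 to 7 calls in these fits. With features averaged by gene, C1qa, C1qb and Mpeg1 passed in limma, while Fcgr1, Lyz2 and Vcam1 did not (adjusted p 0.103, 0.221 and 0.382). Lyz2 and Vcam1 were each called in 9 of 15 other settings, and C1qa, C1qb, Fcgr1 and Mpeg1 in 12 to 14. Itgam, an integrin of myeloid cells named here after its values were seen, ran the other way, at 8.49, 8.73, 8.37 and 8.50 in lymphoma 1 to 4 and 8.10, 6.27, 7.23 and 7.62 in wild type 1 to 4 (difference 1.22, adjusted p 0.105). Without wild type 1 it was called higher (adjusted p 0.0142), beside 6 lower markers. Ccr2, the receptor of monocytes, was near background in both groups. Of 8 plasma cell markers 3 were lower (Jchain, Sdc1 and Tnfrsf17), with sums of 7139 to 20739 in lymphoma and 21761 to 87927 in wild type. Each of the 3 passed in 2 of the 8 fits that left out an array, with 0 to 4 calls in the list, and Jchain was called in 9 of 15 other settings. Plasma cells carry CXCR4, CXCR3 and CCR10. S100a8 was the 1 lower marker among 7 of granulocytes, with sums of 1807 to 5488 in lymphoma and 7466 to 18397 in wild type. S100a8 lost its call without wild type 3 or 4, with adjusted p values up to 0.0574. T cells carry CCR7 and CXCR3, and of 9 T cell markers 0 passed in limma, with 2 at an unadjusted p under 0.05, while the sums overlapped, at 6374 to 10262 in lymphoma and 3205 to 16323 in wild type. The T cell sum was carried in large part by Cd8b1 in the lymphomas and in wild type 1, and without wild type 1 Cd8b1 was called higher (3.88, adjusted p 3.29e-05) and 1 other T cell marker, Cd28, lower (adjusted p 0.0367). Cd4 was at background on all arrays by its brightest feature, and 4 of its other features were above the bound on 1 array each. No marker of B cells, natural killer cells, dendritic cells or erythroid cells passed among 7, 8, 8 and 6 measured, and an unadjusted p under 0.05 was found for 1, 2, 1 and 3 of them. Such a p was found in limma for 3039 of all 19087 genes. The part of these other cells in the lower receptor signals was not tested.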

How the data were processed

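The members and gene lists were chosen with earlier results of these data known. The authors deposited log2 intensities of 1-colour Agilent arrays for 45220 features on 8 arrays. How they were scanned, background-corrected or normalized is not stated in the labels. The values are not centred per feature, and their scale factors are unknown. Medians were 7.04, 7.10, 7.07 and 7.09 for lymphoma 1 to 4 and 7.11, 7.26, 7.12 and 7.12 for wild type 1 to 4. No spot flags come with the table.

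The platform annotation listed 33709 features, 33653 with 1 gene symbol and 56 with several, which were not named; the other 11511 were left out. Gene identifiers of 33517 matched RefSeq genes of GRCm38.p6, used for names only, and 0 symbols changed. Arrays, whose 75th percentiles over listed features differed by 0.215, were each set to that percentile. limma (version 3.58.1, R version 4.3.3) was fitted with lmFit and eBayes to all 33709 features with no covariate, and its two-sided p values were adjusted by Benjamini-Hochberg over the same features. Where a gene had several features the brightest on average stands for it, and a call is an adjusted p under 0.05. Every p value given is limma's, and 4 arrays a group limit the precision. The fit was tested on simulated data. A feature was near the ceiling at 80% of the highest intensity of its array.

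Named are the 8 receptors, up to 3 called genes per pathway list and 1 in the opposite direction, in a list with no call those with the largest difference, called markers, and the 3 nearest profiles of each called receptor. Figures were drawn with matplotlib (version 3.10.9). Alternatives covered scaling, filters, variance models, slides, features per gene and leaving out arrays.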

Additional observations from a re-analysis of the deposited data

Results flagged for a closer look

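Among the genes examined, 5 had 1 array far from the other 3 of its group, out of 88 groups of 4 arrays examined, where about 1 in 20 is set apart by chance. The measure is the gap to the nearest other array as a share of the range of the group. In Ackr3 it was 0.924 in wild type, where wild type 1 had 9.51 against 10.92 to 11.03 in the other controls. In Lta it was 0.939, with wild type 1 at 9.45 against 11.26 to 11.38. In Cxcl10 it was 0.833, with wild type 1 at 7.47 against 8.55 to 8.77. In Cd8b1 it was 0.933, with wild type 1 at 13.27 against 8.26 to 8.59. In Sdc1 it was 0.873 in lymphoma, where lymphoma 1 had 6.77 against 8.0 to 8.17. None of the 8 chemokine receptors was set apart in this way.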

How the results depend on the processing

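Of the 15 alternatives other than leaving out 1 array, 14 kept the calls of Ccr6, Ccr7 and Cxcr4. Within slide 1 alone, with fewer arrays, the differences were -2.80, -2.93 and -1.35, each with an adjusted p of 0.708, and 0 genes in all and 0 list genes were called, with 0.0065 as the unadjusted p of Ccr6. Cxcr3 passed with the dimmer 50% of features left out (-2.20, adjusted p 0.0474), adjustment over 1 feature per gene (-2.20, 0.0485), array weights (-2.01, 0.00684), within slide 2 (-1.72, 0.0225) and with the replicate number as a block (-2.20, 0.0256). The replicate block gave 526 called genes against 398 without it and changed no other receptor's call. The numbers share no stated source, and the deviations of same-numbered arrays correlated by 0.18, -0.04, 0.13 and -0.02, with 2 of 4 lymphomas closest to their own number. Receptors without a call changed sign, apart from fits without 1 array, for Ccr2 as deposited (-0.019) and within slide 2 (-0.18), Cxcr5 within slide 2 (-0.11) and Ccr10 within slide 2 (-0.12). The called genes numbered 398 (156 higher, 242 lower), with 417 (116 higher, 301 lower) on the values as deposited, but 1441 with array weights and 1288 within slide 2, and the 18 called list genes numbered 41 and 36. Leaving out each array in turn gave 74 to 1556 genes and 2 to 38 list genes, with differences of -3.57 to -2.97 for Ccr6, -3.10 to -2.32 for Ccr7, -2.26 to -1.71 for Cxcr4, -2.63 to -1.61 for Cxcr3, -0.15 to 0.54 for Cxcr5, -0.00041 to 0.34 for Ccr9, -0.11 to 0.25 for Ccr2 and 0.24 to 0.80 for Ccr10. The highest counts were those without wild type 1, which kept all 18 list calls. Of those 18, 2 (Ackr3 and Mpeg1) passed whichever array was left out. Ccr10 has no value with the dimmer features left out. For the difference between slides, the share of all features with an unadjusted p under 0.05 was not counted. The difference between slides passed in limma for 0 of the 8 receptors in the fit of all arrays, where 1 of 10 features (the second of Cxcr4) had an unadjusted p under 0.05, and for 0 in each of 3 other scalings and the fit without wild type 1, which were added after seeing the data. Without wild type 1 the lowest adjusted p of a receptor for that difference was 0.0606, with wild type 2 the only control left on slide 1.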

Other observations

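Cd8b1, which encodes the beta chain of the T cell coreceptor CD8, had log2 intensities of 11.70, 12.88, 12.44 and 12.17 in lymphoma 1 to 4 and 13.27, 8.41, 8.59 and 8.26 in wild type 1 to 4. It was singled out after its values were seen. The difference was 2.67 (adjusted p 0.188 in limma), and 3.88 without wild type 1 (adjusted p 3.29e-05). Its partner Cd8a differed by -0.03 by its brightest feature. That feature had 7.17, 6.91, 7.88 and 7.47 in lymphoma 1 to 4 and 6.34, 6.60, 7.41 and 9.21 in wild type 1 to 4. The other Cd8a features lay close to background and differed by -0.22 to 0.82, most of them above 0. None of them was called, with 0.148 as the lowest adjusted p in limma. Cd4 was at background on all 8 arrays by its brightest feature.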
